A study of Sus scrofa with 35 samples.

Results

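Transcripts of the peroxiredoxins PRDX1 to PRDX6 were examined in whole blood of pigs kept in thermoneutral (TN) conditions or under heat stress (HS). All non-control probes of the custom porcine Agilent array whose gene name was one of these 6 symbols were selected. They comprised 39 of the 39072 probes in the table of log2 values of the study, and all 6 genes were represented, among 8666 genes with a RefSeq symbol, by 2 probes for PRDX1, 3 for PRDX2, 16 for PRDX3, 6 for PRDX4, 3 for PRDX5 and 9 for PRDX6. Of the 39 probes, 26 carried a pig RefSeq accession, and in all 26 the RefSeq symbol matched the name in the scanner files. The remaining probes were named through other records, such as a protein of another species.

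The 35 animals were castrated male growing pigs with 1 array each, from the local Caribbean breed Creole (CR), the commercial breed Large White (LW) and their F1 cross. TN pigs were slaughtered at 24 °C before the temperature was raised, with 5 CR, 6 F1 and 6 LW animals, and HS pigs after some days of continuous heat, with 6 animals of each breed. The sample labels give 30 °C for HS whereas the protocol text gives a higher value, so that the groups are called by climate only. Littermates were spread over pens, but the labels hold neither pen, litter nor day of slaughter, and every standard error treats the pigs as independent. By the protocol, all TN pigs were slaughtered on earlier days than all HS pigs, and each pen in a single climate. The study also reported a lower feed intake in the heat. HS minus TN therefore cannot be told apart from day of slaughter, age, pen or feed intake.

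Peroxiredoxins reduce hydrogen peroxide and organic peroxides with a reactive cysteine, and most are returned to the reduced form by thioredoxin. PRDX1 to PRDX4 are the typical 2-Cys members and work as pairs of subunits: PRDX1 and PRDX2 lie mainly in the cytosol, PRDX3 in mitochondria and PRDX4 in the endoplasmic reticulum and the secretory pathway. PRDX5 is the atypical 2-Cys member, found in several compartments, and PRDX6 is the 1-Cys member, which uses glutathione and also acts on phospholipids. PRDX2 is one of the most abundant proteins of red blood cells. The RNA of whole blood comes from a mixture of immature red cells, platelets and white cells. In such samples fewer cells of a type and less RNA per cell cannot be told apart.

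The array measured these genes with probes of 60 bases. The end of the coding sequence is shown for the 4 typical 2-Cys members, because it holds a Tyr codon followed by a Phe codon, a pair known from the tail of the proteins that are readily inactivated by excess peroxide. These codons are in capitals below, and each sequence is given up to the stop codon in that frame or, for PRDX1, to the end of the probe.
PRDX1 A_72_P412538: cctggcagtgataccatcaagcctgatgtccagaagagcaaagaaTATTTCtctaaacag
PRDX2 A_72_P402683: agcaaggaaTATTTCtccaaacacaactag
PRDX3 A_72_P341458: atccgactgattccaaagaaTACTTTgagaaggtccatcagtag
PRDX4 A_72_P560129: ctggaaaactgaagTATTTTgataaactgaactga
The longest run of bases shared by probes of different members was 11, between the ends of PRDX1 and PRDX2, and none of the 563 pairs of probes from different members shared 20 bases or more. Within a member, overlap was common enough to matter for counting. The 2 PRDX1 probes shared 45 bases, 2 of the 3 PRDX2 probes (O453 and A_72_P383583) shared 54, and 2 PRDX6 probes (O4029 and A_72_P165176) shared 57. For PRDX3, 3 of 120 pairs shared at least 20 bases.

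For PRDX5, the probes A_72_P146311 and O12302 had the identical sequence, shown because this pair gives the technical error of the array.
PRDX5 A_72_P146311 and O12302: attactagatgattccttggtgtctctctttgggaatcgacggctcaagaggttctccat
In the 35 pigs the first of these probes read higher than the second by 0.25 ± 0.07 (SD, n = 35) on the log2 scale, with a range of 0.05 to 0.34. The offset between both spots of one sequence was therefore about as large as some of the changes below, while its spread between pigs was small, which is why levels were compared only within a probe.

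For PRDX4, the brightest probe (O9724), which departed from the others in the values below, is shown beside the probe next in brightness (A_72_P465440).
PRDX4 O9724: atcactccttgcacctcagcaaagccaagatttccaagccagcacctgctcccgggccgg
PRDX4 A_72_P465440: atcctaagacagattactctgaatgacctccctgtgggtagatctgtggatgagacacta
O9724 was the member probe richest in G and C (60%), against 35% to 45% in the other 5 PRDX4 probes. It shared no run of 20 bases, on either strand, with any other of the 60305 probes of the array. It was named through a protein record and carried no pig transcript accession. For PRDX6, a probe with an open reading frame is given as the last example.
PRDX6 A_72_P633743: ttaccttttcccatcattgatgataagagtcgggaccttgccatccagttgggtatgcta
For each member, the probe with the highest mean served as the reference probe, which was A_72_P412538 for PRDX1, O453 for PRDX2, A_72_P496759 for PRDX3, O9724 for PRDX4, A_72_P672854 for PRDX5 and O4029 for PRDX6.

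Of the 39 probes, 38 were well above background on all 35 arrays, and the remaining one, the dimmest PRDX6 probe A_72_P444848, on 33. No probe spot was saturated. Over the whole array 55.2% to 68.0% of probes were well above background. The arrays differed in overall brightness before normalization: the 75th percentile of the processed signal ranged from 112 to 186 in F1 TN pigs, with a median of 152, and from 172 to 266 in F1 HS pigs, with a median of 250. In CR and LW pigs the medians of TN and HS groups lay between 199 and 236.

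Across breeds, HS was associated with higher PRDX1 and PRDX5 and lower PRDX2, while PRDX3 and PRDX6 did not pass the test and PRDX4 differed between its own probes. Of the 39 probes, 9 (23.1%) passed an adjusted p of 0.05 for HS minus TN in limma, 5 higher and 4 lower in HS, and 14 had an unadjusted p under 0.05. Over all 39072 probes 34.8% passed, 20.1% higher and 14.7% lower, so the family was not called more often than the array as a whole. The median change was 0.11 over the 39 probes and 0.06 over all probes, on the log2 scale. The 9 probes belonged to 4 genes, and they count overlapping and identical sequences separately. When all probes of a gene were averaged first, PRDX1 and PRDX5 passed as higher and PRDX2 as lower, and PRDX3, PRDX4 and PRDX6 did not pass. The 34.8% is a share of probes and no base for averaged genes, so this fit does not compare the family with the array. Without the 12 F1 pigs 0 of the 39 probes passed in limma, with a lowest adjusted p of 0.215, and 0 of all probes passed. In that fit 5 of the 39 probes were under 0.05 unadjusted, beside 6845 of all 39072, so the family did not stand out.

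**Figure D1:**
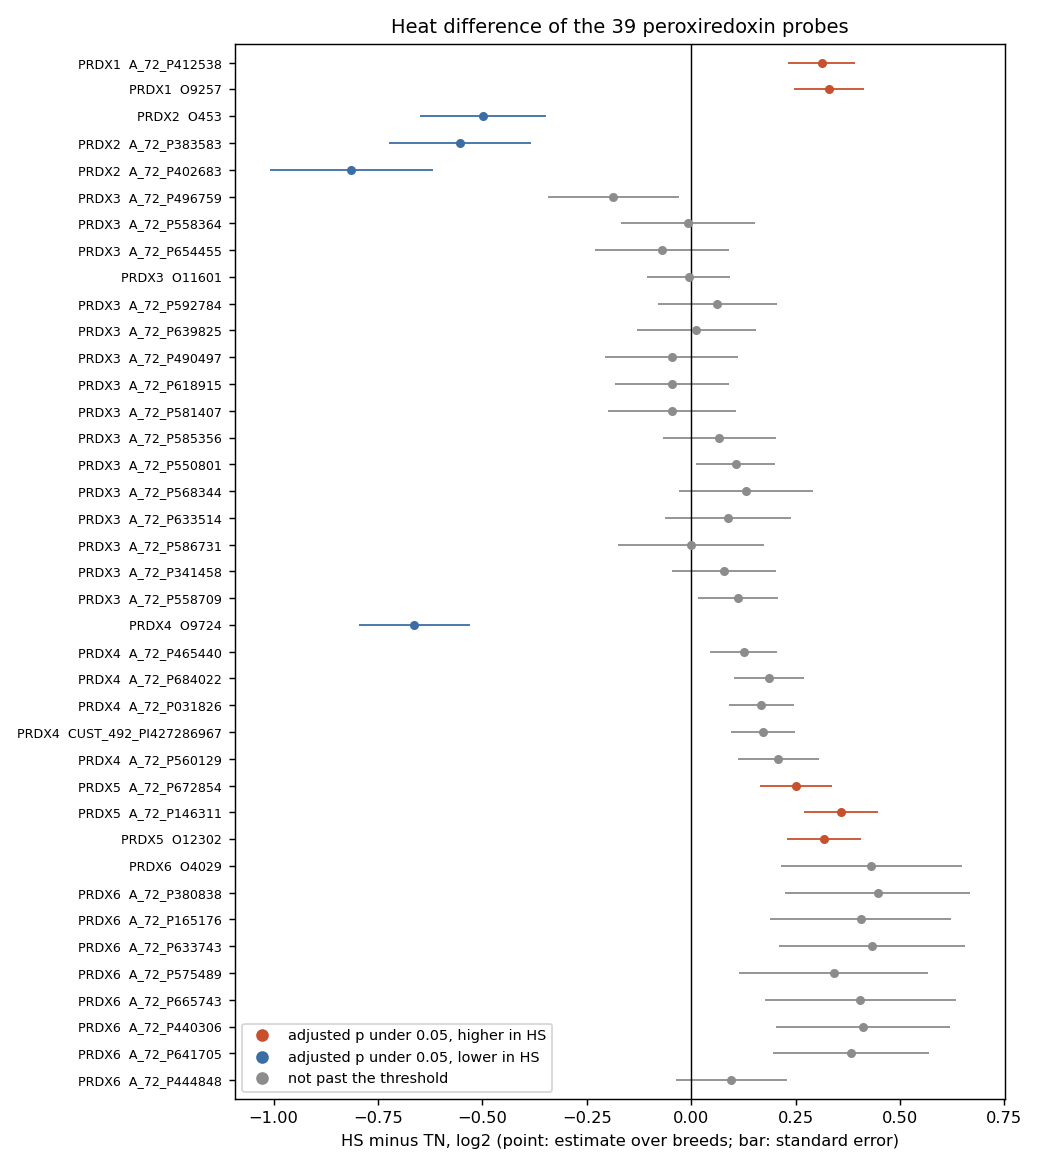
Difference HS minus TN on the log2 scale (x axis) for the 39 peroxiredoxin probes (y axis, grouped by gene), with points for the limma estimate over the 3 breeds and bars for its standard error. All 3 PRDX2 probes and the PRDX4 probe O9724 lie to the left of zero, the PRDX1 and PRDX5 probes to the right, and the 16 PRDX3 probes around zero.

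Among the cytosolic members, PRDX1, which also regulates peroxide signalling, rose. In its reference probe the 5 CR TN pigs had log2 values of 11.87, 11.21, 11.80, 11.85 and 12.06, and the 6 CR HS pigs ranged from 11.74 to 12.43 with a median of 12.13. In F1 pigs the values were 11.09 to 11.73 (median 11.46) in TN and 11.69 to 12.08 (median 11.98) in HS. In LW pigs they were 11.26 to 11.60 (median 11.40) in TN and 11.29 to 11.79 (median 11.52) in HS. The ranges overlapped at an edge in F1 pigs and widely in CR pigs, where 4 of the 5 TN values lay inside the HS range, and the LW groups lay almost on top of each other. Relative to the TN mean of their breed, 16 of the 18 HS pigs were higher. The change over breeds was 0.31 ± 0.08 (SE, adjusted p = 0.00417) for A_72_P412538 and 0.33 ± 0.08 (adjusted p = 0.00428) for O9257, both by limma. The pair of probes deviated together between pigs of a group (Pearson r = 0.93, Spearman rho = 0.92, permutation p = 1e-05 for each, the smallest that 100000 permutations can give).

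PRDX1 was the member whose probes passed for a difference between breeds. CR pigs had more PRDX1 transcript than LW pigs over both climates, by 0.44 ± 0.10 (adjusted p = 0.0145) and 0.46 ± 0.10 (adjusted p = 0.0158) in the 2 probes, by limma. These were the only 2 of the 39 probes called for CR minus LW (5.1%), against 1.08% of all probes (0.571% higher in CR). Both probes stand for 1 gene and share 45 bases, so the 5.1% counts nearly the same measurement again and is no measure of the family. For F1 minus CR and F1 minus LW, 0 of the 39 probes passed in limma, with 2 probes at an unadjusted p under 0.05 in each, and 0.184% and 0.0256% of all probes passed. The unadjusted ones were the PRDX1 probes, at -0.22 and -0.22 for F1 minus CR and 0.22 and 0.24 for F1 minus LW, so that the F1 estimate lay between those of both parental breeds.

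PRDX2, the red cell peroxiredoxin, fell in all 3 of its probes. The probe at the stop codon, A_72_P402683, had the largest change. In CR TN pigs it had log2 values of 14.80, 15.90, 15.17, 15.50 and 14.85, and in CR HS pigs it ranged from 13.43 to 15.31 with a median of 14.80. In F1 pigs it ranged from 15.08 to 16.51 (median 15.20) in TN and from 12.82 to 14.66 (median 14.30) in HS. In LW pigs the ranges were 14.88 to 15.63 (median 15.32) and 14.78 to 15.34 (median 15.07). The groups of F1 pigs did not overlap, whereas those of CR and LW pigs did. How many of all probes separate these F1 groups was not counted, and 38.7% of all probes were called in F1 pigs by limma. Over breeds the change was -0.81 ± 0.19 (SE, adjusted p = 0.00295) by limma, and 16 of 18 HS pigs were below the TN mean of their breed.

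The brighter PRDX2 probes changed less. In O453, the reference probe, the CR TN pigs had 16.70, 17.32, 17.02, 17.12 and 16.59, and the CR HS pigs 15.63 to 17.18 with a median of 16.78. F1 pigs ranged from 16.78 to 17.78 (median 17.01) in TN and from 15.10 to 16.73 (median 16.29) in HS, without overlap but with a narrow gap. LW pigs ranged from 16.79 to 17.30 (median 17.04) in TN and from 16.81 to 17.25 (median 16.89) in HS. By limma the change was -0.50 ± 0.15 (adjusted p = 0.0120) for O453 and -0.55 ± 0.17 (adjusted p = 0.0133) for A_72_P383583, which overlaps it. The 3 probes deviated together between pigs of a group, with r from 0.96 to 0.99 and rho from 0.94 to 0.97 (permutation p = 1e-05 for each pair).

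PRDX3, the mitochondrial member, showed no probe past the threshold among 16. Its estimates by limma ran from -0.19 to 0.13, 8 above and 8 below zero, with adjusted p of 0.36 to 0.998, and no unadjusted p was under 0.05. In the reference probe the CR TN pigs had 10.12, 9.70, 9.998, 10.80 and 9.98, and the CR HS pigs 9.73 to 10.58 (median 9.99). F1 pigs ranged from 8.88 to 10.84 (median 10.103) in TN and from 9.22 to 10.19 (median 10.04) in HS. LW pigs ranged from 9.38 to 10.36 (median 10.24) in TN and from 8.98 to 10.24 (median 9.50) in HS. All groups overlapped, and pigs of one group differed by up to about 2 log2 units, as in F1 TN. Of the 120 pairs of PRDX3 probes, 119 deviated together between pigs past an adjusted permutation p of 0.05, with a median r of 0.88 and a range of 0.36 to 0.98 (rho 0.30 to 0.98).

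PRDX4, the member of the endoplasmic reticulum, gave opposite readings. O9724 fell by 0.66 on the log2 scale (SE 0.13, adjusted p = 0.00159 by limma), with 16 of 18 HS pigs below the TN mean of their breed. The CR TN pigs had 10.33, 11.38, 10.85, 11.13 and 10.97, and the CR HS pigs 10.05 to 11.16 (median 10.55). F1 pigs ranged from 11.26 to 11.94 (median 11.44) in TN and from 9.88 to 10.66 (median 10.42) in HS, with a clear gap between the groups. LW pigs ranged from 10.53 to 11.51 (median 11.09) in TN and from 10.58 to 10.82 (median 10.69) in HS.

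The other 5 PRDX4 probes had estimates of 0.13 to 0.21 and adjusted p of 0.0739 to 0.216 by limma. In A_72_P465440 the CR TN pigs had 11.004, 10.61, 11.11, 10.99 and 10.84, and the CR HS pigs 10.40 to 11.26 (median 10.85). F1 pigs ranged from 10.36 to 10.74 (median 10.63) in TN and from 10.52 to 11.32 (median 10.99) in HS. LW pigs ranged from 10.56 to 11.16 (median 10.69) in TN and from 10.77 to 10.95 (median 10.81) in HS. The groups overlapped in every breed. Between pigs of a group, these 5 probes deviated together (10 pairs, r 0.39 to 0.92, rho 0.40 to 0.91, adjusted permutation p up to 0.0456). Each of them went against O9724, with r from -0.48 to -0.31 and rho from -0.48 to -0.36, and 2 of those 5 pairs had an adjusted permutation p under 0.05. No direction is therefore given for PRDX4 as a gene.

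PRDX5 rose in all 3 probes. In its reference probe A_72_P672854, the CR TN pigs had 12.14, 12.11, 12.07, 12.20 and 12.62, and the CR HS pigs 11.89 to 12.59 (median 12.35). F1 pigs ranged from 11.72 to 12.36 (median 12.13) in TN and from 12.25 to 13.02 (median 12.40) in HS. LW pigs ranged from 11.63 to 12.38 (median 12.20) in TN and from 12.15 to 12.55 (median 12.37) in HS. The groups overlapped in each breed, although 16 of 18 HS pigs were above the TN mean of their breed. By limma the change was 0.25 ± 0.09 (SE, adjusted p = 0.0235) for the reference probe and 0.36 ± 0.09 (adjusted p = 0.00337) and 0.32 ± 0.09 (adjusted p = 0.00688) for the 2 spots of the identical sequence. The identical pair had r = 0.97 between pigs of a group, and each of these spots had r of 0.82 to 0.85 with the reference probe (rho at least 0.82, permutation p = 1e-05 for each pair).

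PRDX6, the 1-Cys member, had positive estimates in all 9 probes, from 0.10 to 0.45, and none passed (adjusted p of 0.104 to 0.588 by limma, 1 probe at an unadjusted p under 0.05). Its reference probe had 8.76, 9.29, 9.67, 9.63 and 8.60 in CR TN pigs and 8.80 to 11.23 (median 9.88) in CR HS pigs. F1 pigs ranged from 8.30 to 10.56 (median 9.60) in TN and from 9.57 to 10.68 (median 9.86) in HS. LW pigs ranged from 8.55 to 10.19 (median 9.31) in TN and from 8.70 to 10.23 (median 9.05) in HS. The groups overlapped widely, and SDs within groups reached 0.85. The change in this probe was 0.43 ± 0.22 (SE, adjusted p = 0.115). The 36 pairs of PRDX6 probes had r of 0.77 to 0.996 and rho of 0.77 to 0.99 (permutation p = 1e-05 for each), so the spread between pigs was shared by all probes.

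**Figure D2:**
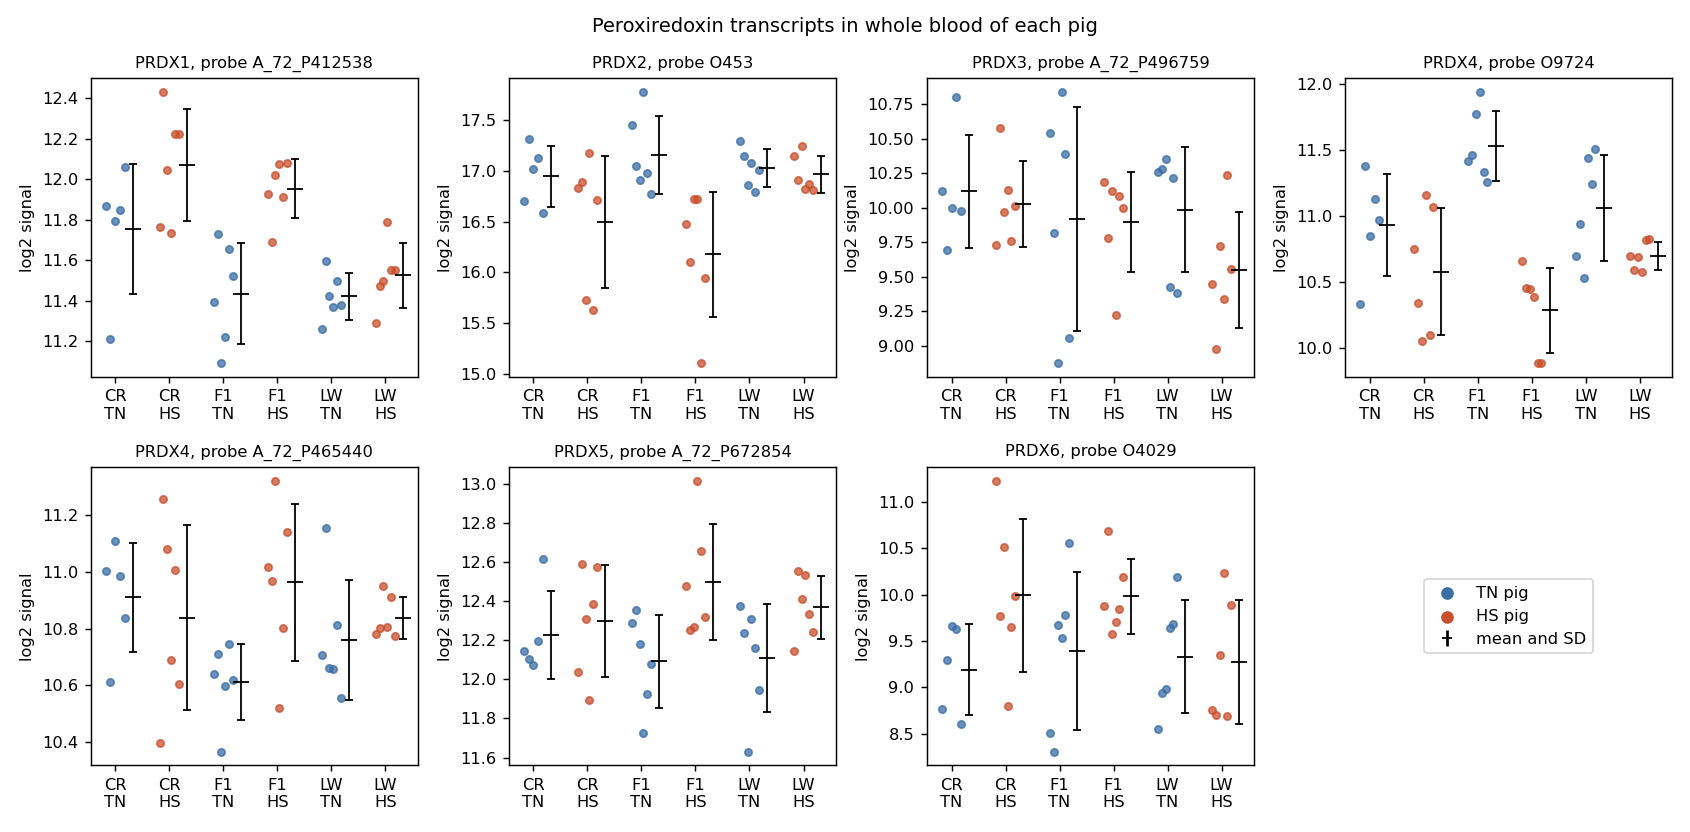
Log2 signal (y axis, scale differs between panels) of the reference probe of each member and of the second PRDX4 probe in each pig, for the 6 groups of breed and climate (x axis). Points are pigs, with black marks for the group mean and its SD. F1 pigs in TN and HS do not overlap for PRDX2 O453, where the gap is narrow, and for PRDX4 O9724.

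The order of the 6 groups was then set out for each member by the group means of its reference probe. PRDX1 was highest in CR HS (mean 12.07), followed by F1 HS, CR TN, LW HS, F1 TN and LW TN (11.42). PRDX2 ran from F1 TN (17.16) through LW TN, LW HS, CR TN and CR HS to F1 HS (16.18). PRDX3 ran from CR TN (10.12) through CR HS, LW TN, F1 TN and F1 HS to LW HS (9.55). For both PRDX1 and PRDX5 the F1 HS group stood in the upper part of the order, and for PRDX2 it stood last. PRDX4 by O9724 ran from F1 TN (11.53) through LW TN, CR TN, LW HS and CR HS to F1 HS (10.28). PRDX5 ran from F1 HS (12.50) through LW HS, CR HS, CR TN and LW TN to F1 TN (12.09), with all HS groups above all TN groups. PRDX6 ran from CR HS (9.99) through F1 HS, F1 TN, LW TN and LW HS to CR TN (9.19). In an exact two-sided permutation test, 0 of the 30 pairs of neighbours in these orders differed past the threshold. The smallest p was 0.0498 (F1 TN above LW TN in O9724, adjusted p = 0.885), and the smallest p that the group sizes allow is 0.00216. A single pair at that value would not pass after adjustment over 30 pairs, and neighbours were chosen by the same means, so that the absence of calls was close to fixed by the design and says nothing of equal levels.

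Within breeds, probes passed in F1 pigs and 0 passed in CR or LW pigs. In F1 pigs 14 of the 39 probes (35.9%) passed in limma, 10 higher and 4 lower in HS, against 38.7% of all probes (20.8% higher and 17.9% lower). With array brightness as a covariate, described below, 0 of the 39 passed in F1 pigs in limma (3 under 0.05 unadjusted). The 14 comprised all probes of PRDX1, PRDX2, PRDX4 and PRDX5. The PRDX1 probes changed by 0.52 and 0.56, the PRDX2 probes by -0.98 to -1.46 and the PRDX5 probes by 0.41 to 0.45. In PRDX4, O9724 changed by -1.25 (adjusted p = 0.000211) and the other 5 probes by 0.35 to 0.46 (adjusted p up to 0.0326), so that its probes were called in opposite directions in the same pigs. In CR pigs 0 of 39 passed in limma, with 6 at an unadjusted p under 0.05 (0% and 8.87% of all probes), and in LW pigs 0 of 39 with 1 unadjusted (0% and 8.71% of all probes). PRDX2 O453 changed by -0.45 ± 0.25 (SE) in CR and by -0.06 ± 0.24 in LW pigs.

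**Figure D3:**
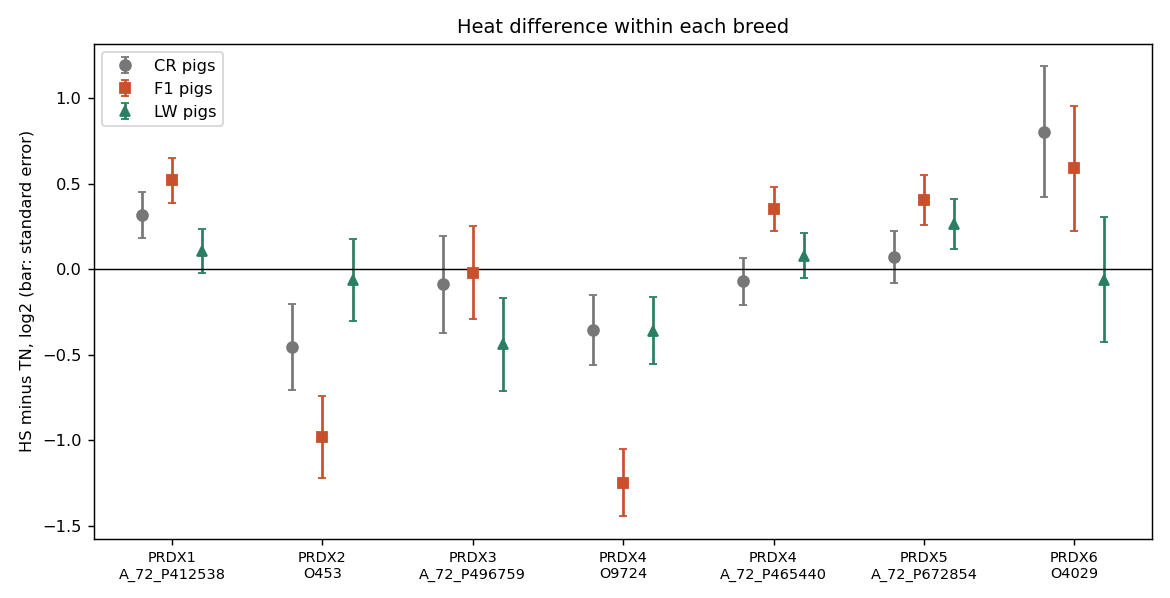
Difference HS minus TN on the log2 scale (y axis) within CR, F1 and LW pigs for the reference probe of each member and the second PRDX4 probe (x axis), with bars for the standard error. F1 pigs have the estimate farthest from zero for PRDX1, PRDX2, both PRDX4 probes and PRDX5.

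The difference between breeds in the heat effect was tested directly, and no probe passed. For the interaction of breed and climate, 0 of 39 probes passed in the limma F test (5 under 0.05 unadjusted, with the lowest adjusted p at 0.278), against 0% of all probes called and 14.9% unadjusted. For F1 minus LW, 0 passed in limma and 9 were under 0.05 unadjusted (22.7% of all probes), with the lowest adjusted p at 0.122. The heat effect of O453 differed between these breeds by -0.92 ± 0.34 (SE) and that of O9724 by -0.89 ± 0.28. For F1 minus CR, 0 passed in limma and 4 were under 0.05 unadjusted (11.8% of all probes, lowest adjusted p = 0.398), and for LW minus CR 0 passed and 0 were under 0.05 unadjusted (1.79% of all probes). The called differences in F1 pigs are thus not shown to differ from those in CR and LW pigs.

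The brightness of the arrays moved with several of these values. Between pigs of a group, the log2 of the 75th percentile of processed signal was correlated with PRDX1 (r = 0.54, rho = 0.48, permutation p = 0.00938 and 0.0107), PRDX2 (r = -0.565, rho = -0.63, permutation p = 0.00186 and 0.00029) and both PRDX4 probes. The latter were O9724 (r = -0.59, rho = -0.58, permutation p = 0.00141 and 0.00155) and A_72_P465440 (r = 0.53, rho = 0.48, permutation p = 0.0047 and 0.00956). These 4 remained past 0.05 after adjustment over 14 such relations (adjusted p for r of 0.013 to 0.0328, for rho of 0.00406 to 0.0301). Without the 2 pigs farthest from the median, r was 0.46, -0.54, -0.47 and 0.43. PRDX5 had r = 0.06 and rho = 0.04 (permutation p = 0.74 and 0.825). With this brightness as a covariate, a choice made after seeing the data, 6 of the 39 probes passed for HS minus TN over breeds: both PRDX1 probes (0.22 and 0.23), PRDX2 A_72_P402683 (-0.55), PRDX4 O9724 (-0.47) and the identical PRDX5 spots (0.33 and 0.29). That count is not set against the share of all probes in the same fit, so it does not compare the family with the array. In F1 pigs, where 0 of the 39 then passed in limma (3 under 0.05 unadjusted), 0 of all probes passed as well. In those pigs O9724 then changed by -0.78 ± 0.20 (SE, adjusted p = 0.156) and O453 by -0.42 ± 0.25 (adjusted p = 0.43). Brightness and climate overlapped little in F1 pigs, and their parts in these differences cannot be told apart there.

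Levels of several members followed marker genes of particular blood cells from pig to pig. PRDX2 followed the mean of 25 erythroid genes (r = 0.86, rho = 0.84, permutation p = 1e-05 for both, adjusted p = 0.00014 and 0.00021), and went against the mean of 15 T cell genes (r = -0.68, rho = -0.69, permutation p = 0.00026 and 9e-05, adjusted p = 0.00273 and 0.000945). PRDX6 followed the mean of 8 platelet genes (r = 0.92, rho = 0.91, permutation p = 1e-05, adjusted p = 0.00014 and 0.00021). PRDX5 followed the mean of 10 B cell genes (r = 0.77, rho = 0.77, permutation p = 1e-05 and 2e-05, adjusted p = 0.00014 and 0.00028). All values were deviations from the mean of the pig's own group, so that differences between group means did not enter. Without the 2 pigs farthest from the median of the member, r was 0.82, -0.60, 0.90 and 0.76 in these 4 relations.

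**Figure D4:**
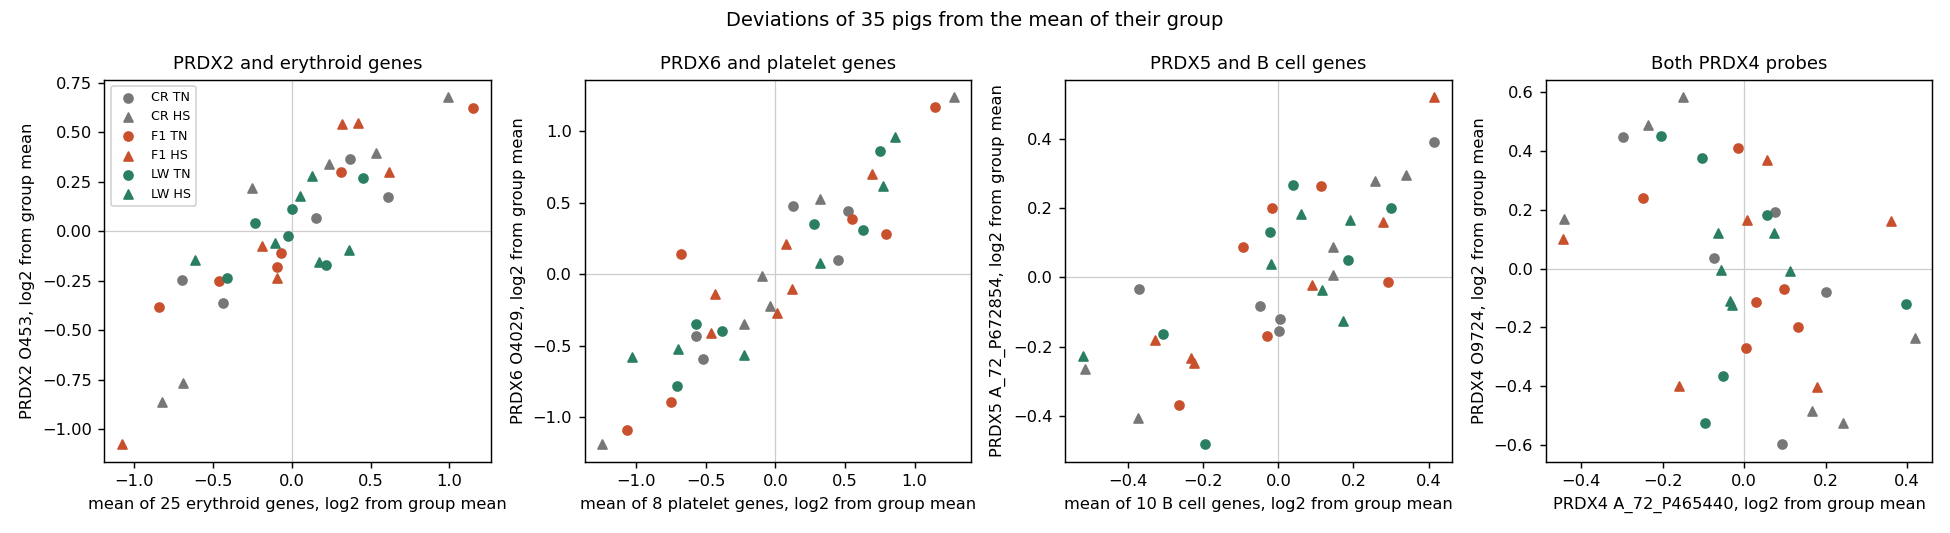
Deviation of each of the 35 pigs from the mean of its group, on the log2 scale, for PRDX2 against the mean of 25 erythroid genes, PRDX6 against 8 platelet genes, PRDX5 against 10 B cell genes and PRDX4 O9724 against PRDX4 A_72_P465440. Colours are breeds and symbols climates, and the points rise along a line in the first 3 panels (r = 0.86, 0.92 and 0.77) and scatter downward in the last.

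In all, 42 relations of the 6 reference probes with 7 marker lists were computed, and 10 passed an adjusted permutation p of 0.05 for r. The other 6 were PRDX1 with B cell genes (r = 0.51, rho = 0.465, permutation p = 0.00473 and 0.00952, adjusted p = 0.0248 and 0.0444), PRDX3 with neutrophil genes (r = 0.50, rho = 0.58, permutation p = 0.00226 and 0.00039, adjusted p = 0.0152 and 0.00328) and with erythroid genes (r = 0.49, rho = 0.50, permutation p = 0.00618 and 0.00363, adjusted p = 0.0288 and 0.0191), PRDX6 with cytotoxic cell genes (r = -0.56, rho = -0.53, permutation p = 0.00254 and 0.00346, adjusted p = 0.0152 and 0.0191), and O9724 with T cell and erythroid genes. For O9724 these were r = -0.59 and rho = -0.595 with T cell genes (permutation p = 0.00239 and 0.00163, adjusted p = 0.0152 and 0.0114) and r = 0.505 and rho = 0.41 with erythroid genes (permutation p = 0.0077 and 0.0346, adjusted p = 0.0323 and 0.121). Without the 2 pigs farthest from the median, r in these 6 relations was 0.60, 0.53, 0.38, -0.57, -0.63 and 0.40. The second PRDX4 probe passed with none of the 7 lists (r from -0.34 to 0.46, rho from -0.25 to 0.38, smallest permutation p = 0.0362 for r and 0.0603 for rho, adjusted p = 0.253 and 0.422).

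The genes of the marker lists were called to differing extents in HS, beside 34.8% of all probes (20.1% higher and 14.7% lower). Of the 25 erythroid genes measured (of 40 listed), 13 fell and 1, SLC4A1, rose in limma, with a median change of -0.72. The level of the list, as the mean log2 value of its genes in a pig, ranged from 10.56 to 12.56 in F1 TN and from 9.30 to 10.998 in F1 HS pigs, from 10.32 to 11.62 and from 9.74 to 11.56 in CR pigs and from 10.73 to 11.59 and from 10.20 to 11.17 in LW pigs. Of the 10 B cell genes, 4 rose and 0 fell, with a median of 0.27, and the list ranged from 8.95 to 9.51 in F1 TN and from 9.34 to 10.08 in F1 HS pigs. In CR pigs it ranged from 9.24 to 10.03 in TN and from 9.23 to 10.09 in HS, and in LW pigs from 9.04 to 9.64 and from 8.985 to 9.70, so that the groups of these breeds overlapped almost fully. Of the 8 platelet genes 0 passed in limma (1 under 0.05 unadjusted, F13A1), with a median of 0.38. Of the other lists, 5 of 15 T cell genes rose and 0 fell, 4 of 10 monocyte genes rose and 1 fell, 1 of 13 neutrophil genes rose and 0 fell, and 3 of 14 cytotoxic cell genes fell and 0 rose. The lists as such were not tested. What part the mixture of cells had in the changes of PRDX2 and PRDX5 was not tested.

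Between members, deviations from the group mean were mostly unrelated. Of 15 pairs of reference probes, 1 passed for r, PRDX2 with PRDX4 O9724 (r = 0.60, permutation p = 0.00129, adjusted p = 0.0193), and it did not pass for rho (0.53, permutation p = 0.00465, adjusted p = 0.0697). Without the 2 farthest pigs r was 0.53. PRDX1 with PRDX5 came next (r = 0.48, rho = 0.42, permutation p = 0.00747 and 0.023, adjusted p = 0.056 and 0.149).

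As a description, the genes whose levels over the 35 pigs were most like each reference probe were sought among 8660 named genes. Differences between groups enter r of levels, here and for the PRDX4 probes below, unlike the r of deviations above. For PRDX2 the most alike genes included GLRX5 (Pearson r = 0.92), a mitochondrial glutaredoxin needed for iron-sulfur clusters. They also included BNIP3L (r = 0.91), which clears mitochondria from maturing red cells and is itself in the erythroid list through another probe. For PRDX6 they were F13A1 (r = 0.945), a clotting factor subunit stored in platelets and itself in the platelet list, FHL1C (r = 0.935) and PDLIM1 (r = 0.93). CD40 (r = 0.805), a receptor of B cells, HHEX (r = 0.79) and SLC34A3 (r = 0.79) were most like PRDX5. For PRDX1 they were PCCB (r = 0.83), CD302 (r = 0.83) and the MHC class II gene SLA-DQA (r = 0.82), and for PRDX3 PPM1D (r = 0.91), RFC4 (r = 0.90) and ACADL (r = 0.90). On deviations from group means, r fell most for the PRDX1 genes, to 0.67, 0.74 and 0.62 in that order. All of these points share arrays and normalization.

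The 2 PRDX4 probes had different companions. O9724 was most like probes of TEX10, NENF and DENND4B (r = 0.98 each), whose own changes in HS by limma were -0.60 (adjusted p = 0.00159), -1.08 (adjusted p = 0.00166) and -0.93 (adjusted p = 0.00159). A_72_P465440 was most like XBP1 (r = 0.90), a transcription factor of secretory cells, the ribosomal protein gene RPS13 (r = 0.855) and SPCS1 (r = 0.83), a subunit of the signal peptidase.

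Other genes of the peroxide system were read by their brightest probe, from lists chosen by role. Of the 40 measured, 15 passed in limma for HS minus TN over breeds. In the thioredoxin and sulfiredoxin cycle, which restores peroxiredoxins, 1 of 9 measured genes rose, TXNRD3 (0.33 ± 0.09, SE, adjusted p = 0.00607), and 1 fell, SESN3 (-0.26 ± 0.09, adjusted p = 0.0303), with a list median of -0.03. Sulfiredoxin itself (SRXN1), SESN2 and TXN2 had no probe under these symbols among those analysed and were not measured. Thioredoxin itself (TXN), named although it did not pass because it is a direct partner of members of the family, had -0.33 ± 0.15 (adjusted p = 0.0782). Of 9 glutathione partners, 3 rose and 0 fell: GSS, which makes glutathione (0.27 ± 0.07, adjusted p = 0.00575), the glutaredoxin GLRX3 (0.17 ± 0.06, adjusted p = 0.0183) and GSTP1, which recharges PRDX6 (0.25 ± 0.09, adjusted p = 0.0331). Among 9 other peroxide and superoxide enzymes, the lipid peroxidase GPX4 rose (0.19 ± 0.07, adjusted p = 0.0291) and catalase (CAT) fell (-0.53 ± 0.21, adjusted p = 0.0475).

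In the oxidative folding system of the endoplasmic reticulum, where PRDX4 acts, 5 of 7 measured genes rose and 0 fell, with a median of 0.25. They included TXNDC12 (0.27 ± 0.08, SE, adjusted p = 0.00736), ERP44, which retains PRDX4 in the compartment (0.25 ± 0.08, adjusted p = 0.0142), PDIA6 (0.33 ± 0.10, adjusted p = 0.0155) and ERP29 (0.23 ± 0.08, adjusted p = 0.0227). Of 6 measured genes around the oxidative stress factor NRF2, 3 fell and 0 rose. They were NFE2L2, which encodes NRF2 (-0.43 ± 0.09, adjusted p = 0.00193), its target NQO1 (-0.57 ± 0.16, adjusted p = 0.00702) and its partner MAFG (-0.33 ± 0.11, adjusted p = 0.0198). These counts stand beside a share of 34.8% called over all probes. The called share, 15 of 40 genes, was near that background, so it says little of these lists as such.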

How the data were processed

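Whole-blood RNA of 35 pigs was hybridised to 1-colour Agilent arrays (5 slides), with 1 array per pig. The deposited scanner files, read with Agilent Feature Extraction 10.10.1.1 per the file headers, hold raw spot intensity and a background-subtracted processed intensity, neither normalized between arrays. A matrix of log2 expression, deposited with them, was made by the authors from median intensity by quantile normalization and a filter on expressed probes whose rule is not stated in the sources used here. Quantile normalization gives all arrays the same distribution, so a shift shared by all transcripts is removed. That matrix was used here. Values recomputed from median intensity had a correlation of 0.99997 with it and a largest difference of 0.32 (log2), and 35 of 35 columns matched their own array best.

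Groups were taken from the labels, and replicate numbers follow the record order and pair no pigs. Nothing in the labels says how pigs shared pens or litters, so p-values measure the spread between these pigs. The number of arrays limits the precision. Each probe was fitted over all 39072 probes with limma 3.58.1 in R 4.3.3 (lmFit, eBayes, two-sided). HS minus TN and breed contrasts were taken from a model with breed and climate as additive terms, and effects within breeds and interactions from the 6 group means. P-values were adjusted by Benjamini-Hochberg over all probes, with a threshold of 0.05. The random effects of the study (pen, day, parents) could not be fitted without labels. The fit was tested on simulated data with independent noise between pigs, which cannot speak to pens, litters, days of slaughter or array brightness.

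Correlations between pigs used deviations from group means, 100000 permutations within groups and Benjamini-Hochberg adjustment within each family of relations, in Python 3.11.15 with numpy 2.4.6. Marker lists were averaged over the brightest probe of each gene, and listed genes without a probe in the table were left out. Reference probes were the brightest of each gene. Pathway genes were named where their brightest probe passed, up to 4 a list by smallest p, and the 3 most alike genes by Pearson correlation, of which 1 is not reported here. The members, lists and probes were chosen with earlier results of these data known, and the fit with array brightness, the second PRDX4 probe and its relations were added after its values were seen. Alternatives were recomputed values, 75th percentile scaling, normexp correction (offset 50), other filters, slide as a block, array weights, no F1 pigs and each array left out. Sequences are those of the scanner files, which place no probe on a chromosome, and genome coordinates and proteins were not used here.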

Additional observations from a re-analysis of the deposited data

Results flagged for a closer look

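One group of values held a pig far from the others. In CR TN pigs the PRDX5 reference probe A_72_P672854 read 12.62 in replicate 5, whereas the other 4 pigs lay between 12.07 and 12.20. Of 48 groups of values examined for 8 probes this was the only such case, and chance alone gives such a gap in about 5% of groups. Over all 39 probes, 10 of 234 groups had one.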

How the results depend on the processing

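All 9 probes called for HS minus TN kept their direction and stayed past the threshold under recomputed values, 75th percentile scaling, normexp correction, both other filters, slide as a block, array weights, the mean of the 3 heat effects within breeds and removal of any single array. Without F1 pigs 0 of 39 passed in limma (5 under 0.05 unadjusted, beside 6845 of all 39072 probes), with all 9 in the same direction. Averaging all probes of a gene, in all pigs, left PRDX1, PRDX2 and PRDX5 past the threshold and PRDX3, PRDX4 and PRDX6 short of it. With array brightness as a covariate, PRDX2 O453 (-0.30, adjusted p = 0.0925), PRDX2 A_72_P383583 (-0.32, adjusted p = 0.102) and PRDX5 A_72_P672854 (0.22, adjusted p = 0.0817) did not pass, and the count in F1 pigs went from 14 to 0. The cause was not tested. Leaving out single arrays gave 9 to 13 probes over breeds, 10 to 14 in F1 pigs, 2 to 2 for CR minus LW and 0 to 0 in the other comparisons. These ranges are not set against the share of all probes in the same fits, so they do not compare the family with the array. The added calls were in PRDX4 probes other than O9724 (without CR HS replicate 1, 4 of them, with A_72_P560129 at an adjusted p of 0.0186) and in PRDX6 A_72_P641705 (adjusted p = 0.0429 without LW TN replicate 6). Single PRDX4 probes also passed with array weights (A_72_P684022, 0.18), 75th percentile scaling (CUST_492_PI427286967, 0.25) and slide as a block (A_72_P560129, 0.21). Scaling on the 75th percentile gave 2 of 15 relations between members in place of 1. Within slides 1 to 4, the change of PRDX2 O453 was -0.78 to -0.16 and of O9724 -0.80 to -0.36, whereas PRDX5 A_72_P672854 had -0.07 on slide 1 and up to 0.71 on slide 3. No paired analysis was possible because replicate numbers only follow the record order and pair no pigs. The 9 PRDX6 probes had SDs within groups of up to 0.89, and their changes of up to 0.45 did not pass.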
